A study of Mus musculus with 12 samples.

Results

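The effect of sPrdm16 in MLL::AF9 leukaemia cells was set against its effect in normal bone marrow cells, gene by gene. Mouse bone marrow cells with the MLL::AF9 fusion from a retroviral vector (MA9), or without it (WT), had received a retrovirus expressing sPrdm16 or a mock retrovirus (control). The 4 groups were MA9 sPrdm16, MA9 control, WT sPrdm16 and WT control, with 3 RNA-seq libraries each. The value tested was the log2 change in MA9 (MA9 sPrdm16 minus MA9 control) minus the log2 change in WT (WT sPrdm16 minus WT control), called the log2 difference below. A positive difference means that the change with sPrdm16 was more positive in MA9 than in WT. All 4 groups had passed through retroviral transduction, and both MA9 groups carried the fusion. The strain, the promoter of the vectors, the number of animals and whether MA9 was a clone are not given in the labels. MA9 cells were grown with mouse IL-3 at 5 ng/ml per the labels, and the medium of the WT cells is not given.

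Genes entered the comparison if they were nuclear and protein-coding and had at least 10 counts in at least 3 MA9 and at least 3 WT libraries. Of 55487 genes in both tables, 21923 were nuclear and protein-coding, and 10884 met the rule. All 10884 were tested. Among the others, 587 reached the minimum in MA9 alone, 1015 in WT alone and 9437 in neither. At the border, 75 genes lay within 1 count inside the rule and 84 within 1 count outside it. Acacb was inside with a third-highest value of 333 counts in MA9 and 10 in WT, and Zfp708 was outside with 31.6 and 9.81.

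Prdm16 is a zinc-finger transcription regulator that binds corepressors such as CtBP and is known for its roles in blood stem cells and brown fat. It is known as a long protein with a PR domain and a short form without it, and the labels do not expand the name sPrdm16. MLL::AF9 joins the amino-terminal part of the chromatin regulator MLL to AF9 and blocks myeloid precursors short of maturity, with HOX and MEIS1 genes kept active. The series names chemoresistance driven by sPrdm16 as its subject. Normal marrow cells in culture hold granulocytes, monocytes and their precursors, which carry the genes that the results below turn on.

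Depth and RNA composition differed between groups. Total counts ran between 17217159 and 37390945 per library. Nuclear protein-coding genes held 16905140 to 28169222 counts in MA9 sPrdm16 libraries, 3844571 to 7406093 in MA9 control libraries and 16046130 to 17789866 in WT libraries, and the lowest was MA9 control replicate 3. Structural RNA (ribosomal, mitochondrial ribosomal, 7SL and other small RNA) made up 18.7% ± 0.120 of counts in MA9 sPrdm16, 64.6% ± 8.31 in MA9 control, 1.72% ± 0.313 in WT sPrdm16 and 2.25% ± 0.308 in WT control (SD, n = 3 each). The 2 groups on the MA9 side of each difference thus also differed in RNA composition. The part of composition in the results was not tested. Each background was deposited as its own table, so levels in MA9 and WT are given without a test between them. A constant offset between the tables cancels in the difference.

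Prdm16 (ENSMUSG00000039410.16, chromosome 4, positions 154316125 to 154636873, minus strand, mm10) followed the labels. It had 5733, 8889 and 5353 counts in MA9 sPrdm16 libraries and 0 in each MA9 control library. In WT it had 950, 708 and 793 counts with sPrdm16, against 22, 18 and 0 in control. These counts corresponded to 286 ± 10.7 CPM in MA9 sPrdm16, at least 581-fold over the limit of 3 counts per MA9 control library. WT levels were 49.3 ± 4.84 CPM with sPrdm16 and 0.899 ± 0.785 CPM in control (SD, n = 3). CPM here is the usual library-size scaling of counts, taken over nuclear protein-coding counts with TMM factors from the genes compared. The log2 difference was at least 3.41 if the WT control mean is taken as measured. That mean rests on 22, 18 and 0 counts, and its error is not in the limit. In the fit used here the difference passed the edgeR test (adjusted p = 0.0015). With the replicate number as a block this difference did not pass the edgeR test (adjusted p = 0.067). Reads of the vector and of the genomic locus were not separated.

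Expression responded differently to sPrdm16 in MA9 and in WT for about as many genes in each direction. Of the 10884 genes, 2066 had a more positive change in MA9 (19%) and 1731 a more negative one (15.9%) at an adjusted p under 0.05. Over all 16507 genes tested in the tables, the shares were 14.8% and 12.6%, and 27.4% in all, against 34.9% of the 10884. A difference of at least 2-fold was reached by 819 and 834 of the 10884, or 7.52% and 7.66%, and by 7.04% and 7.09% of all genes tested. The median log2 difference was 0.04, and the 5th and 95th percentiles were -1.46 and 1.41. The median SE of a gene's difference was 0.23.
The split between directions depends on the scale. With total counts and no scaling factor, 7028 were more positive and 164 more negative, and the median gene then had a difference of 1.22. On that scale of unscaled total counts 40 of the 44 gene lists had more positive than negative calls, against 24 of 44 on the scale used here, and 13 of the 17 lists with a negative median had a positive one. With protein-coding totals and no scaling factor, 1300 were more positive and 2558 more negative, at a median of -0.17. Thinned to equal protein-coding depth, 1684 were more positive and 1656 more negative.

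Within MA9, 1795 of these genes rose and 1412 fell with sPrdm16 (16.5% and 13%, against 13.1% and 14.6% of all genes tested). Within WT, 2094 rose and 2188 fell (19.2% and 20.1%, against 14.3% and 16.4%). Of the 3797 genes with a called difference, 658 changed in opposite directions in the 2 backgrounds, which is 6.05% of the 10884. Of all 16507 genes tested, 730 did so. Among the 658, 420 rose in MA9 and fell in WT (3.86%) and 238 fell in MA9 and rose in WT (2.19%). A further 249 changed in the same direction by a different amount. Without MA9 sPrdm16 replicate 1, 2 or 3, these numbers were 435, 434 or 461 opposite and 162, 160 or 159 in the same direction. The change was called in WT alone for 1646, in MA9 alone for 1035 and in neither for 209. Read the other way, 1545 genes changed in both backgrounds, and 638 of them did so in the same direction with no called difference. A missing call does not show that their changes were equal.

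**Figure D1:**
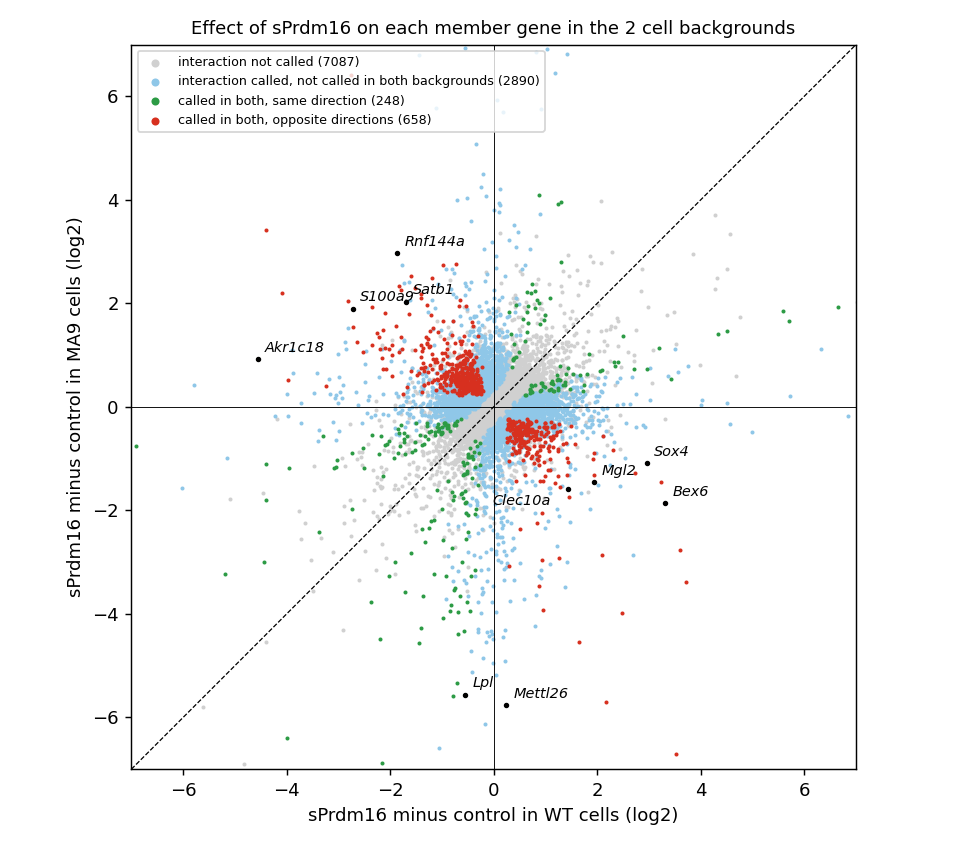
Log2 change with sPrdm16 in MA9 cells (vertical axis) against that in WT cells (horizontal axis) for 10864 genes, with Prdm16 left out and 19 genes beyond the axes at 7 not drawn. The dashed line marks equal changes, and red points in the upper left and lower right quadrants are those drawn of the 658 genes that changed in opposite directions.

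S100a9, Akr1c18, Mgl2 and Sox4 show the pattern in both orientations. S100a9 and Akr1c18 rose in MA9 and fell in WT, while Mgl2 and Sox4 fell in MA9 and rose in WT. Their promoters are shown as reference sequence, because these genes move against each other across the same 4 groups. Each is the run of 250 bases before the annotated start from RefSeq (GRCm38.p6), 5′ to 3′ on the strand of the gene: S100a9 chr3:90695722-90695971 (minus strand), Akr1c18 chr13:4150647-4150896 (minus strand), Mgl2 chr11:70130107-70130356 (plus strand) and Sox4 chr13:28953700-28953949 (minus strand). These starts can differ by some bases from those in the deposited tables. Capitals mark a match to any of 6 short motifs that were searched on both strands.
S100a9: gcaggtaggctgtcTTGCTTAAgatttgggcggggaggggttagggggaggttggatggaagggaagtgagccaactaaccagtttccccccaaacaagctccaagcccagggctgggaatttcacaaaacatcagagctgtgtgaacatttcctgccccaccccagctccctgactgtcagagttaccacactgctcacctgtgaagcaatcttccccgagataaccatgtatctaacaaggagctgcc
Akr1c18: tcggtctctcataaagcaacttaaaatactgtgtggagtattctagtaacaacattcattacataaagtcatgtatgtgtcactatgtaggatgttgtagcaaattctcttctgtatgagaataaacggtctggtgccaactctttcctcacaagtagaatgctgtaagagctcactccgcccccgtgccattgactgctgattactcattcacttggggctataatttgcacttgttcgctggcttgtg
Mgl2: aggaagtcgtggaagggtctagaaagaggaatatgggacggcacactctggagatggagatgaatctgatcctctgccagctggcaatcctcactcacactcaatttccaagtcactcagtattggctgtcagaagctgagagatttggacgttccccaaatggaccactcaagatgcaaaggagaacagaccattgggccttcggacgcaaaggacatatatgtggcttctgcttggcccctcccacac
Sox4: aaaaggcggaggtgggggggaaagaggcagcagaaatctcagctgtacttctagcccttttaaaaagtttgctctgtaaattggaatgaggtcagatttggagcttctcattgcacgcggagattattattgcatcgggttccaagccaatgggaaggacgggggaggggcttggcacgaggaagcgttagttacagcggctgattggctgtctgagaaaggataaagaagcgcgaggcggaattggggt

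The motifs were TTGCNNAA for C/EBP factors, GAGGAAGT for PU.1, AGATAAG for GATA factors and MECOM, TGANTCA for AP-1, CACGTG for MYC and TGTGGTTT for RUNX factors. The S100a9 window held 1 match, to the C/EBP letters on the sense strand, starting 236 bases before the start and overlapping no other motif. The other 3 windows held none of these letters. Promoters in the table covered 8783 of the compared genes by symbol. The C/EBP letters stood in 10.99% of 828 promoters of genes at least 2-fold more positive in MA9, in 8.07% of 843 promoters of genes at least 2-fold more negative, in 7.66% of all promoters of compared genes and in 9.56% of all 32851 promoters. For PU.1 those shares were 3.62%, 3.80%, 2.66% and 2.44%, and for AP-1 they were 6.16%, 5.58%, 4.29% and 6.75%. The MYC-type letters stood in 7.85%, 7.47%, 8.43% and 6.02%, the GATA and MECOM letters in 2.29%, 1.78%, 1.71% and 2.74%, and the RUNX letters in 1.21%, 1.07%, 1.03% and 1.49%. These shares are descriptions, since a match is not a bound site.

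S100a9 (ENSMUSG00000056071.12, chromosome 3, positions 90692632 to 90695721) encodes a subunit of calprotectin, the main calcium-binding protein of neutrophil cytosol. S100a9 had 1018, 1009 and 969 CPM in MA9 sPrdm16 libraries, against 211, 261 and 332 CPM in MA9 control libraries. In WT cells S100a9 had 2044, 2330.3 and 2552 CPM with sPrdm16, against 12963, 16594 and 16037 CPM in control. The groups did not overlap in either background, and the WT control libraries were the highest of the 12. The change was 1.90 (SE 0.14, adjusted p = 1.4e-08) in MA9 and -2.72 (SE 0.14, adjusted p = 1.4e-10) in WT, and the log2 difference was 4.62 (SE 0.20, adjusted p = 4.1e-11) by edgeR. In bulk RNA, fewer cells of a type and less RNA per cell cannot be told apart.

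Akr1c18 (ENSMUSG00000021214.14, chromosome 13, positions 4132615 to 4150654) encodes a steroid reductase that inactivates progesterone. Akr1c18 had 19.99, 17.7 and 20.6 CPM in MA9 sPrdm16 libraries, against 9.77, 11.3 and 9.30 CPM in MA9 control libraries. In WT cells Akr1c18 had 11.4, 12.5 and 11.6 CPM with sPrdm16, against 279.9, 281 and 272 CPM in control. The WT control libraries alone were high, and the other 9 lay between 9.30 and 20.6 CPM. The change was 0.92 in MA9 and -4.55 in WT, a log2 difference of 5.48 (SE 0.16, adjusted p = 3.5e-13).

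Mgl2 (ENSMUSG00000040950.13, chromosome 11, positions 70130329 to 70137550) encodes a galactose-binding C-type lectin of macrophages and dendritic cells. Mgl2 had 27.96, 28.8 and 26.7 CPM in MA9 sPrdm16 libraries, against 77.4, 83.1 and 65.9 CPM in MA9 control libraries. In WT cells Mgl2 had 305, 319 and 332 CPM with sPrdm16, against 87.1, 81.4 and 80.8 CPM in control. The control groups of the 2 backgrounds had similar values, and sPrdm16 libraries lay below them in MA9 and above them in WT. The change was -1.45 in MA9 and 1.94 in WT, with a log2 difference of -3.38 (SE 0.14, adjusted p = 2.2e-11).

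Sox4 (ENSMUSG00000076431.4, chromosome 13, positions 28948919 to 28953713) encodes an HMG-box transcription factor of progenitor cells. Sox4 had 47.2, 43.7 and 45.5 CPM in MA9 sPrdm16 libraries, against 102, 102 and 84.2 CPM in MA9 control libraries. In WT cells Sox4 had 58.2, 61.97 and 72.4 CPM with sPrdm16, against 6.92, 9.90 and 8.004 CPM in control. WT control libraries were the lowest of the 12, and the groups did not overlap in either background. The log2 difference was -4.03 (SE 0.20, adjusted p = 1.5e-10), from -1.08 in MA9 and 2.96 in WT.

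**Figure D2:**
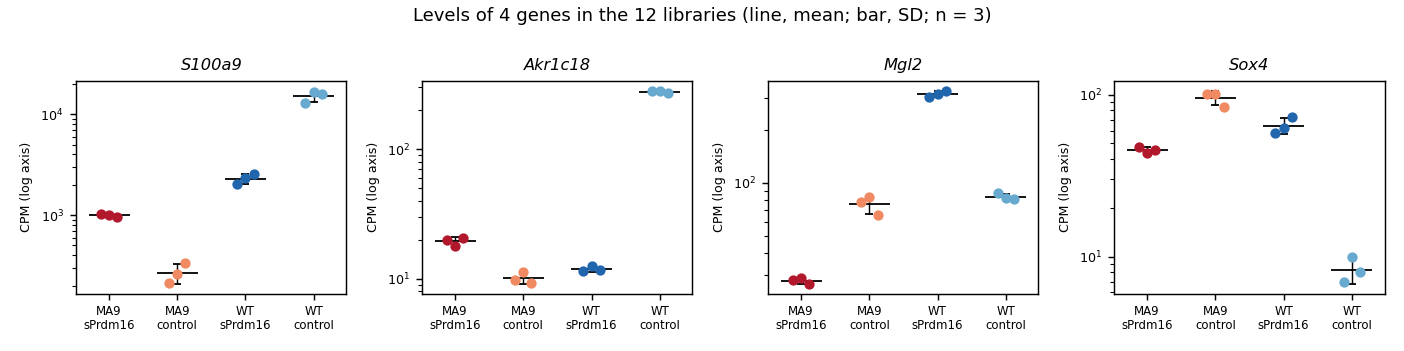
CPM on a log axis of S100a9, Akr1c18, Mgl2 and Sox4 in the 12 libraries, with points for libraries, lines for means and bars for SD (n = 3 per group). In each gene the MA9 pair and the WT pair of groups run in opposite directions, by a log2 difference of 4.62, 5.48, -3.38 and -4.03.

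Among genes with a mean of at least 1 CPM in every group and 5 CPM in the highest, the largest positive differences came mostly from genes that fell steeply in WT. Slpi, a secreted inhibitor of neutrophil proteases, averaged 26.5 ± 1.35 CPM in MA9 sPrdm16 and 19 ± 5.19 in MA9 control, and 146 ± 10.4 in WT sPrdm16 and 2278 ± 99.1 in WT control (SD, n = 3 each). Its log2 difference was 4.49 (SE 0.17, adjusted p = 1.2e-11). Mcpt8, a protease of basophils, had 6.06, 6.65 and 5.01 CPM in MA9 sPrdm16 libraries, against 5.56, 3.59 and 6.61 in MA9 control libraries. In WT cells Mcpt8 had 189, 183 and 208 CPM with sPrdm16, against 2842, 3262 and 3105 in control, and its log2 difference was 4.23 (SE 0.20, adjusted p = 1.1e-10). The MA9 groups overlapped and the WT groups were far apart. Stfa2, a cysteine protease inhibitor, and Ceacam10, a member of the carcinoembryonic antigen family, fell by 4.23 and 3.88 in WT. Their MA9 values of -0.17 and 0.66 did not pass the test, and the log2 differences were 4.06 and 4.54. Sytl3, of a family of vesicle-docking proteins, had a difference of 4.08 and overlaps Ezr in the annotation.

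Rnf144a, which encodes a ubiquitin ligase of the RBR type, rose in MA9 and fell in WT. Rnf144a had 13.8, 13.2 and 11.2 CPM in MA9 sPrdm16 libraries, against 1.36, 2.10 and 1.22 CPM in MA9 control libraries. In WT cells Rnf144a had 5.23, 4.59 and 3.05 CPM with sPrdm16, against 16.8, 16.3 and 13.96 CPM in control. The MA9 sPrdm16 and WT control libraries were high and the other 2 groups low, with a log2 difference of 4.85 (SE 0.42, adjusted p = 1.8e-07). Its MA9 control value rests on 11, 17 and 5 counts.

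Among genes at those levels, the largest negative differences came mostly from genes that fell in MA9. Lpl, lipoprotein lipase, which frees fatty acids from lipoproteins, had 3.77, 3.56 and 3.86 CPM in MA9 sPrdm16 libraries, against 108, 185 and 236 in MA9 control libraries. In WT cells Lpl had 1728, 1722 and 1799 CPM with sPrdm16, against 2589.7, 2757 and 2306 in control. It fell in both backgrounds, by 5.56 in MA9 and by 0.54 in WT, with a log2 difference of -5.01 (SE 0.30, adjusted p = 3.0e-08). Mmp8, neutrophil collagenase, averaged 1.17 CPM in MA9 sPrdm16 and 24.7 in MA9 control. It averaged 1028 CPM in WT sPrdm16 and 1093 in WT control, and its difference was -4.33 (SE 0.21, adjusted p = 1.4e-10). It was 1 of 2 members of the secondary and tertiary granule list with a more negative change in MA9. Plxnb2, a receptor for semaphorins, fell by 3.92 in MA9 and rose by 0.96 in WT (difference -4.88). P2rx3, an ATP-gated ion channel, fell by 4.71 in MA9 and had -0.44 in WT, which did not pass the test (difference -4.27). It overlaps Ssrp1.

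Mettl26 and Zbtb10 were also among the 8 most negative at those levels, at -5.99 (SE 0.46, adjusted p = 6.6e-06) and -4.13 (SE 0.62, adjusted p = 4.7e-04). Mettl26, a methyltransferase-like gene, had 11.8, 11 and 10.1 CPM in MA9 sPrdm16 libraries, against 429.8, 396 and 961 in MA9 control libraries. Zbtb10, a zinc-finger gene, had 64.4, 65.4 and 62.95 CPM in MA9 sPrdm16 libraries, against 382, 413 and 798 in MA9 control libraries. Their raw counts in the MA9 control libraries were 3477, 3199 and 3925 for Mettl26 and 3094, 3338 and 3260 for Zbtb10. These did not fall in replicate 3, where protein-coding counts were 3844571, the lowest of the 3, so their counts did not follow the protein-coding total. Whether reads of structural RNA contribute to them was not tested.

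Genes that changed in opposite directions were ranked by the smaller of their changes, again at a mean of at least 1 CPM in every group and 5 CPM in the highest. Of the 5 that ranked highest among those that rose in MA9 and fell in WT, S100a9 and Rnf144a are described above, and the others were Olfml2b, Satb1 and Fam160a1. Olfml2b, an extracellular matrix protein, had 192, 184 and 188 CPM in MA9 sPrdm16 libraries, against 34.5, 40.4 and 42.9 in MA9 control libraries. In WT cells Olfml2b had 5.06, 7.45 and 8.13 CPM with sPrdm16, against 25.1, 20.7 and 24.97 in control. It rose by 2.27 in MA9 and fell by 1.78 in WT, a log2 difference of 4.05 (SE 0.21, adjusted p = 3.3e-10). Satb1, a chromatin organiser of lymphoid and stem cells, changed by 2.03 in MA9 and -1.70 in WT (difference 3.73). Fam160a1 changed by 1.82 in MA9 and -2.10 in WT (difference 3.92) and overlaps a second protein-coding gene. The MA9 control values rest on 10, 14 and 19 counts for Satb1 and on 44, 11 and 10 for Fam160a1.

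In the other orientation the 5 were Mgl2, described above, Bex6, Clec10a, Ubash3a and Rps6ka2. Bex6 had 1.24, 1.55 and 1.69 CPM in MA9 sPrdm16 libraries, against 5.81, 5.19 and 5.14 in MA9 control libraries. In WT cells Bex6 had 25.4, 23.7 and 30.4 CPM with sPrdm16, against 3.03, 4.09 and 0.821 in control, and the log2 difference was -5.17 (SE 0.55, adjusted p = 2.0e-06). Clec10a, a related lectin that neighbours Mgl2 on chromosome 11, averaged 1.30 CPM in MA9 sPrdm16 and 3.82 in MA9 control, and 114 in WT sPrdm16 and 42.1 in WT control. Both lectins thus fell in MA9 and rose in WT, with a difference of -3.02 for Clec10a. Ubash3a, a suppressor of T cell receptor signalling, changed by -1.31 in MA9 and 1.94 in WT (difference -3.25), and the kinase gene Rps6ka2 by -1.74 in MA9 and 1.45 in WT (difference -3.19).

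Where 1 group was at 0 in all its libraries, the difference is a limit. This held for 28 of the genes, with MA9 control at 0 for 16 of them. Lama5, a laminin chain, had 3.86, 4.84 and 3.97 CPM in MA9 sPrdm16 libraries, against 0 in MA9 control, while it averaged 48.3 CPM in WT sPrdm16 and 198 in WT control. Its log2 difference was at least 5.14. Srl, a sarcoplasmic calcium-binding protein, averaged 5.42 CPM in MA9 sPrdm16 and 4.85 in MA9 control, and had 3.77, 3.91 and 2.92 CPM in WT sPrdm16 libraries, against 0 in WT control. Its log2 difference was at most -3.96.

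Neutrophil genes of the secondary and tertiary granules were the list with the largest positive median. Of 19 compared members, 13 had a more positive change in MA9 and 2 a more negative one. The median log2 difference was 2.63, against 0.04 over all compared genes. In WT 18 fell and none rose (median -2.20), whereas in MA9 6 rose and 7 fell (median 0.05). Ngp, a neutrophil granule protein, fell in both backgrounds by unequal amounts. Ngp had 349, 341 and 348 CPM in MA9 sPrdm16 libraries, against 735, 687 and 821 CPM in MA9 control libraries. In WT cells Ngp had 241, 236 and 210.3 CPM with sPrdm16, against 4354, 4490.3 and 5694 CPM in control. Its groups did not overlap in either background, with a log2 difference of 3.29 (SE 0.15, adjusted p = 4.8e-11). Chil3, a secreted chitinase-like protein of myeloid cells, averaged 8.34 CPM in MA9 sPrdm16 and 6.70 in MA9 control, and 1429.6 in WT sPrdm16 and 11142 in WT control (difference 3.25, SE 0.14, adjusted p = 4.7e-11). The whole list summed to 3355 to 3461 CPM in MA9 sPrdm16, 2781 to 3265 in MA9 control, 9078 to 9642 in WT sPrdm16 and 45242 to 53599 in WT control. The part of cell makeup in this was not tested.

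The S100 family followed, with 6 of 8 compared members more positive in MA9, 1 more negative and a median of 0.85. All 8 fell in WT, while 1 rose and 3 fell in MA9. S100a8, the partner of S100a9 in calprotectin, fell by 2.41 in WT and had 0.22 (SE 0.12, adjusted p = 0.18) in MA9, where S100a9 rose. S100a4, a regulator of cell motility, was the negative member, at -3.26 in MA9 and -0.43 in WT (difference -2.83, SE 0.31, adjusted p = 2.3e-06). Its MA9 sPrdm16 value rests on 23, 17 and 7 counts.

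Primary granule genes are made earlier in neutrophil differentiation. Of 6 members 1 was more positive and 1 more negative, a share near the 34.9% called over all compared genes, and 5 rose in each background. Mpo, myeloperoxidase, had 1215, 1181 and 1191 CPM in MA9 sPrdm16 libraries, against 1600.1, 1755 and 1958 in MA9 control libraries. In WT cells Mpo had 1738, 1674 and 1616 CPM with sPrdm16, against 377, 453 and 333 in control, and the log2 difference was -2.68 (SE 0.15, adjusted p = 5.4e-10). Ctsg, cathepsin G, changed by 0.60 in MA9 and -0.02 in WT, where the WT value did not pass the test (difference 0.62).

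Most monocyte and macrophage genes fell in MA9, and fewer of them fell in WT. Of 20 compared members 13 had a more negative change in MA9 and 4 a more positive one, with a median log2 difference of -2.11. On unscaled total counts 10 were more negative and 6 more positive, with a median of -0.85. In MA9 2 rose and 14 fell (median -1.78), and in WT 2 rose and 7 fell (median -0.22). Csf1r, the receptor for the macrophage growth factor CSF1, had 4.72, 3.62 and 3.81 CPM in MA9 sPrdm16 libraries, against 24.97, 33.1 and 47.7 in MA9 control libraries. In WT cells Csf1r had 354, 334 and 322 CPM with sPrdm16, against 309, 299 and 252 in control. The MA9 groups were apart and the WT values did not pass the test, with a log2 difference of -3.32 (SE 0.24, adjusted p = 1.7e-08). Vcan, the proteoglycan versican of monocytes, changed by -3.94 in MA9 and -0.46 in WT (difference -3.48).

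Klf4 and Irf8 encode transcription factors of the monocyte lineage. For Klf4 the MA9 sPrdm16 value rests on 15, 12 and 19 counts. Klf4 changed by -4.34 in MA9 and -0.14 in WT and Irf8 by -2.14 in MA9 and 0.14 in WT, where neither WT value passed the test, with log2 differences of -4.20 (SE 0.34, adjusted p = 8.8e-08) and -2.28 (SE 0.22, adjusted p = 6.0e-07). Over the myeloid transcription factors as a list, 5 of 14 were more positive and 4 more negative, against 19% and 15.9% of all compared genes. The monocyte list summed to 1976 to 2000 CPM in MA9 sPrdm16, 1907 to 2846 in MA9 control, 36668 to 38407 in WT sPrdm16 and 42662 to 46300 in WT control, and 4 and 3 of its 25 genes were at 0 in the MA9 groups.

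Antigen presentation genes of dendritic cells and MHC class II gave 5 of 8 compared members more negative in MA9 and 1 more positive, with a median of -1.33. The positive member was at 0 in MA9 control, and its limit, at least -0.35, does not fix its direction. On unscaled total counts 3 were more negative and 1 more positive, with a median of -0.11. The contrast was wide for Cd74, the invariant chain of MHC class II. Cd74 had 1.002, 0.560 and 0.707 CPM in MA9 sPrdm16 libraries, against 8.53, 19.2 and 26.9 CPM in MA9 control libraries. In WT cells Cd74 had 1791, 1934 and 2122 CPM with sPrdm16, against 623, 664 and 564 CPM in control. It fell in MA9 and rose in WT, a log2 difference of -6.19 (SE 0.45, adjusted p = 8.3e-07). Its MA9 sPrdm16 value rests on 51 counts in all. Cd86, a costimulatory ligand for T cells, changed by -3.96 in MA9 and 0.04 in WT, and the WT value did not pass the test (difference -4.0, SE 0.33, adjusted p = 1.0e-07). Its MA9 sPrdm16 value rests on 20, 25 and 12 counts. The list summed to 29.6 to 30.9 CPM in MA9 sPrdm16, 52.0 to 77.1 in MA9 control, 3507 to 3986 in WT sPrdm16 and 1134 to 1321 in WT control.

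Most eosinophil genes fell in both backgrounds, and the difference went both ways among them. Of 6 members 5 fell in MA9 and 5 in WT, with medians of -3.49 and -3.82, and 2 were more positive and 2 more negative in MA9. Prg2, the major basic protein, had 15.9, 11.8 and 13.4 CPM in MA9 sPrdm16 libraries, against 125, 99.5 and 160.1 in MA9 control libraries. In WT cells Prg2 had 6.47, 8.82 and 8.13 CPM with sPrdm16, against 265, 308 and 276 in control. It fell in both and by more in WT (difference 1.96, SE 0.23, adjusted p = 5.8e-06), while the ribonuclease Ear2 fell by more in MA9, at -6.39 in MA9 and -3.998 in WT (difference -2.39). The call for Ear2 was lost on unscaled total counts (-1.20, adjusted p = 0.081) and at equal protein-coding depth (-2.06, adjusted p = 0.054). Ear2 had 6, 16 and 2 counts in MA9 sPrdm16 libraries.
Of 16 mast cell and basophil genes 5 could be compared, with 3 more positive and 1 more negative in MA9. Ms4a2, the beta chain of the IgE receptor, fell by 3.07 in WT and had 0.16 in MA9, which did not pass the test (difference 3.23). Hdc, which makes histamine, fell in both, at -1.33 in MA9 and -2.14 in WT (difference 0.81). In the MA9 groups 8 and 9 of the 16 were at 0, against 1 and 0 in the WT groups. Of the lymphoid, erythroid and stromal lists only 2, 4 and 3 members could be compared. The megakaryocyte list had 3 of 6 more positive and 2 more negative. Over all compared genes 19% were more positive and 15.9% more negative.

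**Figure D3:**
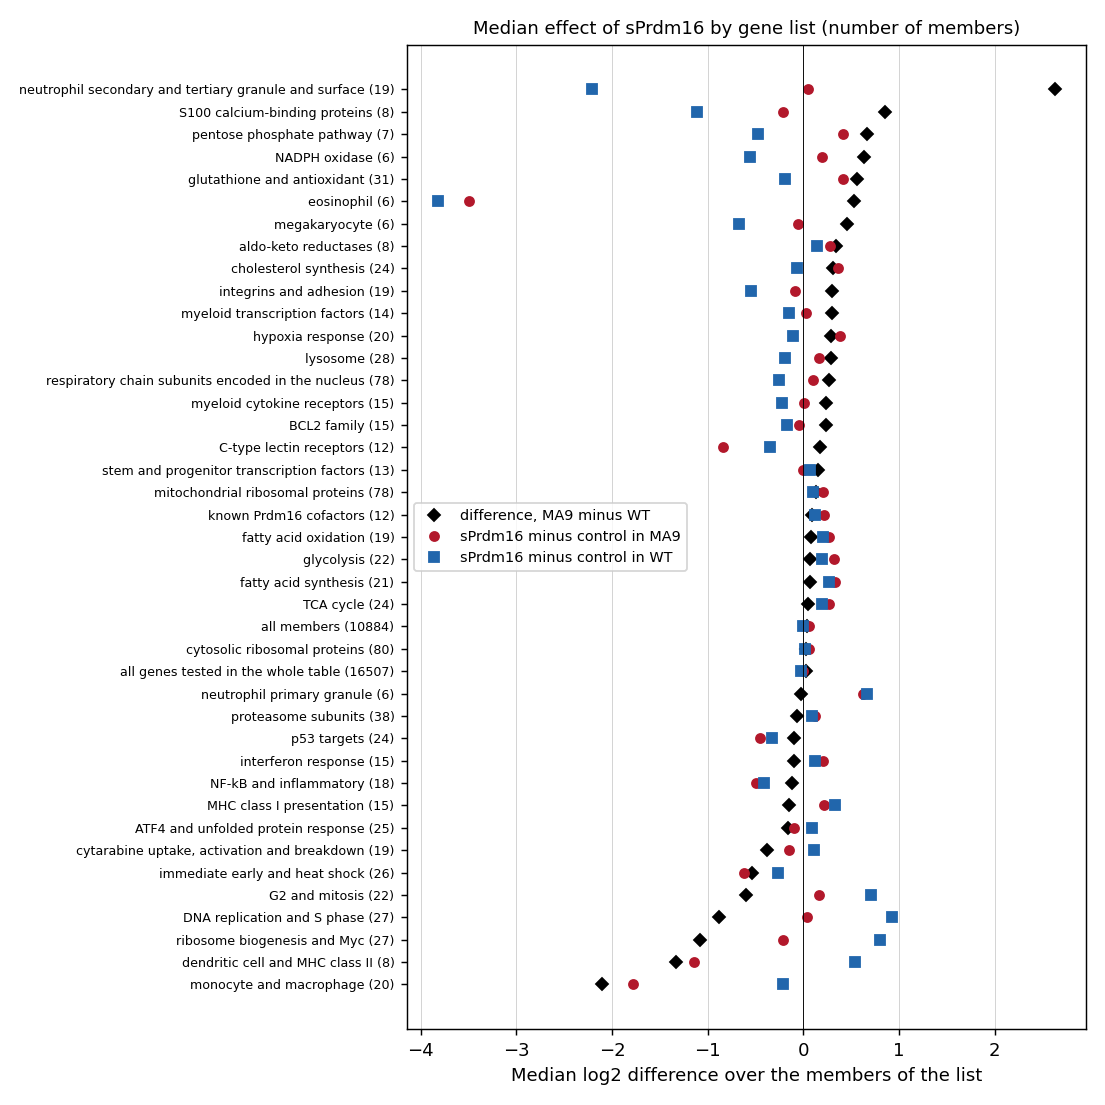
Median log2 change with sPrdm16 in MA9 (circles) and in WT (squares) and median log2 difference (diamonds) over the compared members of each gene list with at least 6 of them, in order of the difference. Neutrophil secondary and tertiary granule genes stand at 2.63 at the top, and monocyte and macrophage genes at -2.11 at the bottom, against 0.04 for all compared genes.

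Genes of growth and proliferation mostly rose in WT, where 19.2% of all compared genes rose. In MA9 16.5% of all compared genes rose and 13% fell, as a measure for the counts below. In ribosome biogenesis, the list with Myc and the factors that build ribosomes in the nucleolus, 22 of 27 members had a more negative change in MA9 and none a more positive one. The median log2 difference was -1.08. On unscaled total counts none was more negative and 1 more positive, with a median of 0.13. In WT 25 rose and none fell (median 0.80), and in MA9 1 rose and 9 fell (median -0.21). Nop56, a core protein of box C/D snoRNA particles, had 321, 333 and 335 CPM in MA9 sPrdm16 libraries, against 553, 513 and 505 in MA9 control libraries. In WT cells Nop56 had 389, 419 and 439 CPM with sPrdm16, against 218, 233 and 176 in control, a log2 difference of -1.66 (SE 0.14, adjusted p = 8.1e-08). Introns of Nop56 hold snoRNAs, whose reads cannot be told apart from the host without strand and isoform data. Of the 27 members 4 overlap such small RNA genes, and among the other 23 the counts were 0 more positive and 18 more negative, with a median of -1.08. Myc, the transcription factor that drives growth, rose by 1.54 in WT and had 0.11 in MA9, which did not pass the test (difference -1.44, SE 0.13, adjusted p = 1.9e-07). Unscaled total counts ended the calls of Nop56 (-0.48, adjusted p = 0.19) and Myc (-0.26, adjusted p = 0.51).

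The genes of DNA replication gave the same order. Of 27 members 19 were more negative in MA9 and 1 more positive, with a median of -0.88. On unscaled total counts 1 was more negative and 6 more positive, with a median of 0.29. In WT 21 rose and none fell (median 0.93), while in MA9 5 rose and 2 fell (median 0.04). Mcm5, a subunit of the replicative helicase, had 235, 243 and 232 CPM in MA9 sPrdm16 libraries, against 188, 189.8 and 221 in MA9 control libraries. In WT cells Mcm5 had 211, 211 and 187 CPM with sPrdm16, against 64.96, 53.1 and 61.3 in control. The 3 WT control libraries were the lowest, and the log2 difference was -1.51 (SE 0.13, adjusted p = 2.5e-07). It was -0.29 (adjusted p = 0.42) on unscaled total counts. Pole, the catalytic subunit of a replicative polymerase, rose by 1.84 in WT and had -0.25 in MA9, which did not pass the test (difference -2.08).

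In G2 and mitosis 13 of 22 members were more negative in MA9 and none more positive, with a median of -0.59. On unscaled total counts none was more negative and 10 more positive, with a median of 0.60. In WT 19 rose and none fell, and in MA9 6 rose and 1 fell. Bub1b, a kinase of the spindle checkpoint, changed by -0.30 in MA9 and 1.10 in WT (difference -1.40, SE 0.13, adjusted p = 5.1e-07). Cdk1, the kinase that starts mitosis, changed by -0.07 in MA9 and 0.84 in WT, where the MA9 value did not pass the test (difference -0.91, SE 0.19, adjusted p = 0.0018). Bub1b had -0.21 (adjusted p = 0.61) on unscaled total counts, and Cdk1 had the other sign, at 0.26.

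Stem and progenitor transcription factors were split, with 5 of 13 compared members more positive in MA9 and 3 more negative. The shares over all compared genes were 19% and 15.9%. Besides Sox4, Myb, a regulator of progenitor growth, averaged 1024 CPM in MA9 sPrdm16 and 1025 in MA9 control, and 56.1 in WT sPrdm16 and 31.6 in WT control. It rose in WT (difference -0.83, SE 0.16, adjusted p = 6.9e-04), and with total counts and no scaling factor its difference had the other sign, at 0.34. Pbx3, a HOX cofactor, had 63.98, 62.4 and 60.2 CPM in MA9 sPrdm16 libraries, against 70.3, 63.1 and 61.2 in MA9 control libraries. In WT cells Pbx3 had 2.03, 2.11 and 2.92 CPM with sPrdm16, against 6.99, 8.24 and 8.89 in control, so it fell in WT while the MA9 groups overlapped (difference 1.71, SE 0.23, adjusted p = 2.4e-05).
Of 15 myeloid cytokine receptors 5 were more positive and 3 more negative, against 19% and 15.9% of all compared genes. Csf2rb2, a receptor chain for IL-3, changed by -0.31 in MA9 and -1.50 in WT (difference 1.19).

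**Figure D4:**
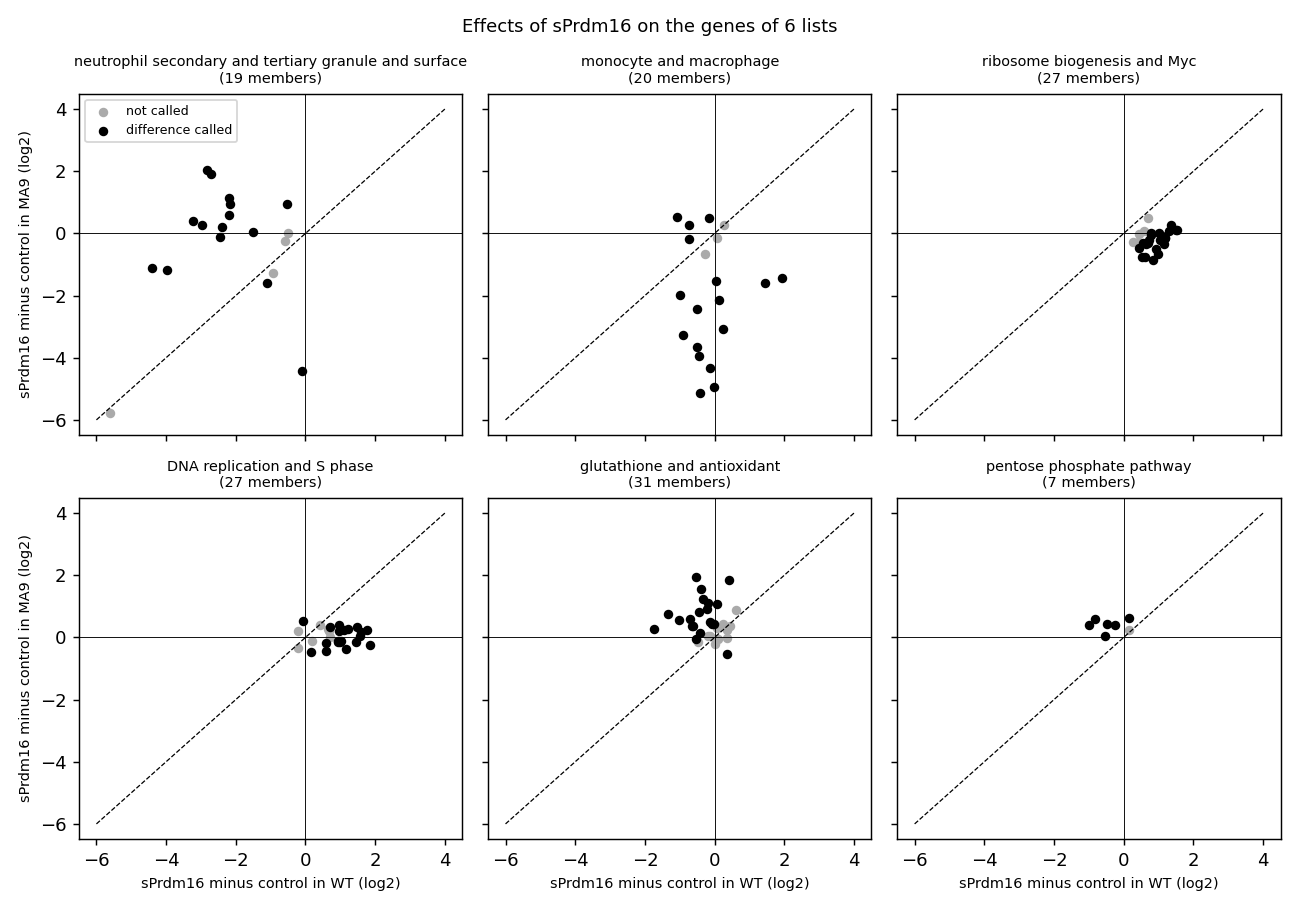
Log2 change with sPrdm16 in MA9 (vertical axis) against WT (horizontal axis) for each compared gene of 6 lists, with black points for genes whose difference was called and the dashed line for equal changes. Most neutrophil granule genes lie above the line (13 of 19 called), most monocyte genes below it (13 of 20 called), and most ribosome biogenesis and S phase genes also below it (22 and 19 of 27 called more negative).

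Most genes of redox defence rose in MA9. In the glutathione and antioxidant list 19 of 31 members were more positive in MA9 and 1 more negative, with a median log2 difference of 0.56. In MA9 19 rose and 1 fell (median 0.42), and in WT 3 rose and 12 fell (median -0.19). Of the 31, 9 changed in opposite directions, against 6.05% of all compared genes. Prdx5, a peroxiredoxin that reduces peroxides, had 411, 396 and 395 CPM in MA9 sPrdm16 libraries, against 216, 234 and 256 in MA9 control libraries. In WT cells Prdx5 had 293, 317 and 337 CPM with sPrdm16, against 712, 837 and 836 in control. The groups did not overlap in either background, and the log2 difference was 2.10 (SE 0.13, adjusted p = 2.4e-09). Gstm1, a glutathione transferase, changed by 1.57 in MA9 and -0.39 in WT (difference 1.96, SE 0.18, adjusted p = 3.5e-07), and Mgst1, a membrane-bound one, by 0.26 in MA9 and -1.74 in WT (difference 2.001). Slc7a11, the cystine importer that feeds glutathione synthesis, changed by 0.56 in MA9 and -1.03 in WT (difference 1.59).

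The pentose phosphate pathway, which supplies NADPH and ribose, had 6 of 7 members more positive in MA9 and none more negative, with a median of 0.66. In MA9 5 rose and none fell, and in WT none rose and 4 fell. Rpia, ribose-5-phosphate isomerase, had 144, 142 and 142 CPM in MA9 sPrdm16 libraries, against 91.5, 93.3 and 96.5 in MA9 control libraries. In WT cells Rpia had 8.95, 11.3 and 12.7 CPM with sPrdm16, against 16.5, 22.4 and 18.9 in control, a log2 difference of 1.42 (SE 0.19, adjusted p = 2.2e-05). Rpe, the epimerase of the same branch, changed by 0.39 in MA9 and -0.99 in WT (difference 1.38, SE 0.17, adjusted p = 1.4e-05). The NADPH oxidase, which uses NADPH to make superoxide in phagocytes, had 4 of 6 subunits more positive and none more negative (median 0.64). In MA9 3 rose and 1 fell, and in WT none rose and 5 fell. Its GTPase Rac2 changed by 0.47 in MA9 and -0.66 in WT (difference 1.13, SE 0.13, adjusted p = 4.4e-06).

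Other metabolic lists had medians nearer to 0. Over all compared genes 19% were more positive and 15.9% more negative, and 16.5% rose in MA9 and 19.2% in WT. In cholesterol synthesis 9 of 24 members were more positive and none more negative (median 0.32). In MA9 11 rose and none fell, and in WT 1 rose and 3 fell. Hmgcs1, an early enzyme of that pathway, averaged 315 ± 5.86 CPM in MA9 sPrdm16 and 172 ± 24.7 in MA9 control, and 88.4 ± 13.2 in WT sPrdm16 and 105 ± 5.86 in WT control (SD, n = 3 each). Its log2 difference was 1.13 (SE 0.16, adjusted p = 4.2e-05). In glycolysis 5 of 22 were more positive and none more negative, at a median of 0.07. With protein-coding totals and no scaling factor, 4 were more positive and 5 more negative, at a median of -0.13. The glucose transporter Slc2a3 fell by 1.38 in WT and had -0.15 in MA9, which did not pass the test (difference 1.23). Eno1, enolase, rose by 0.56 in MA9 and had -0.08 in WT, which did not pass the test (difference 0.63).
The TCA cycle had 2 of 24 more positive and 3 more negative, and 12 rose in MA9 and 11 in WT. Fatty acid synthesis had 6 of 21 more positive and 3 more negative, where all compared genes had 19% and 15.9%. With protein-coding totals and no scaling factor the TCA cycle had 1 and 7, and fatty acid synthesis 2 and 6. Acss2, which makes acetyl-CoA from acetate, changed by 1.07 in MA9 and -0.77 in WT (difference 1.84, SE 0.26, adjusted p = 4.5e-05). Fasn, fatty acid synthase, rose in both and by more in WT, at 0.52 in MA9 and 1.28 in WT (difference -0.77, SE 0.13, adjusted p = 2.8e-04), and with total counts and no scaling factor its difference had the other sign, at 0.43. In fatty acid oxidation 2 of 19 were more positive, among them Acadl, an acyl-CoA dehydrogenase, with 1.13 in MA9 and 0.02 in WT (difference 1.11, SE 0.12, adjusted p = 3.9e-06). The WT value of Acadl did not pass the test.

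Nuclear genes of the respiratory chain had 18 of 78 members more positive and 2 more negative, with a median of 0.27, against 19% and 15.9% of all compared genes. In MA9 14 rose and 6 fell, and in WT 8 rose and 34 fell. Without MA9 control replicate 3 the number more positive was 27. With protein-coding totals and no scaling factor, 16 were more positive and 11 more negative, at a median of 0.07. Cox7a2, a subunit of cytochrome oxidase, changed by 0.96 in MA9 and -0.34 in WT (difference 1.30, SE 0.17, adjusted p = 2.0e-05), and Ndufa2, of complex I, by 0.47 in MA9 and -0.66 in WT (difference 1.13). Mitochondrial ribosomal proteins had 11 of 78 more positive and 5 more negative, and without MA9 control replicate 3 these were 21 and 6. With protein-coding totals and no scaling factor they were 7 and 14. In the hypoxia list 7 of 20 were more positive and 2 more negative (median 0.29). Ero1l, an oxidase of protein folding, had 496, 515 and 492 CPM in MA9 sPrdm16 libraries, against 284, 256 and 254 in MA9 control libraries. In WT cells Ero1l had 417, 356 and 323 CPM with sPrdm16, against 836, 719 and 811 in control, a log2 difference of 2.03 (SE 0.14, adjusted p = 7.9e-09). Bnip3l, a receptor for mitophagy, also rose in MA9 and fell in WT, at 0.50 in MA9 and -0.59 in WT (difference 1.09).

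The list of genes that take up, activate or break down cytarabine had 4 of 19 members more positive in MA9 and 9 more negative, with a median of -0.38. On unscaled total counts these were 10 more positive and 1 more negative, with a median of 0.82. In MA9 4 rose and 3 fell, and in WT 6 rose and 6 fell. Samhd1, a phosphohydrolase that breaks down the active triphosphate of cytarabine, had 89.8, 89.7 and 88.9 CPM in MA9 sPrdm16 libraries, against 49.7, 67.01 and 59.99 in MA9 control libraries. In WT cells Samhd1 had 136, 142 and 133 CPM with sPrdm16, against 216, 210.02 and 206 in control. It rose in MA9 and fell in WT, with a log2 difference of 1.23 (SE 0.14, adjusted p = 4.5e-06). Nt5c3, a pyrimidine nucleotidase that dephosphorylates nucleoside monophosphates, moved the same way, at 0.68 in MA9 and -0.52 in WT (difference 1.20, SE 0.18, adjusted p = 9.9e-05). Rrm1, the large subunit of ribonucleotide reductase, rose by 0.93 in WT and had -0.16 in MA9, which did not pass the test (difference -1.09, SE 0.13, adjusted p = 9.9e-06), and with total counts and no scaling factor its difference had the other sign, at 0.10.

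Immediate early and heat shock genes had 12 of 26 members more negative in MA9 and 2 more positive, with a median of -0.53. On unscaled total counts 3 were more negative and 12 more positive, with a median of 0.68. In MA9 none rose and 14 fell, and in WT 4 rose and 10 fell. Atf3, a stress-induced transcription factor, had 0.811, 1.02 and 1.20 CPM in MA9 sPrdm16 libraries, against 7.54, 10.4 and 7.35 in MA9 control libraries. In WT cells Atf3 had 248, 260.3 and 274 CPM with sPrdm16, against 217, 231 and 184 in control, a log2 difference of -3.39 (SE 0.23, adjusted p = 1.2e-08). Jun, a subunit of AP-1, changed by -1.14 in MA9 and 0.07 in WT, where the WT value did not pass the test (difference -1.22, SE 0.17, adjusted p = 3.0e-05). Its difference was -0.04 (adjusted p = 0.96) on unscaled total counts. Ccl9, a chemokine of myeloid cells, rose in MA9 and fell in WT, at 1.13 in MA9 and -1.37 in WT (difference 2.50, SE 0.11, adjusted p = 4.8e-11). Of 5 compared CC chemokines 3 were more positive and 1 more negative, against 19% and 15.9% of all compared genes.

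**Figure D5:**
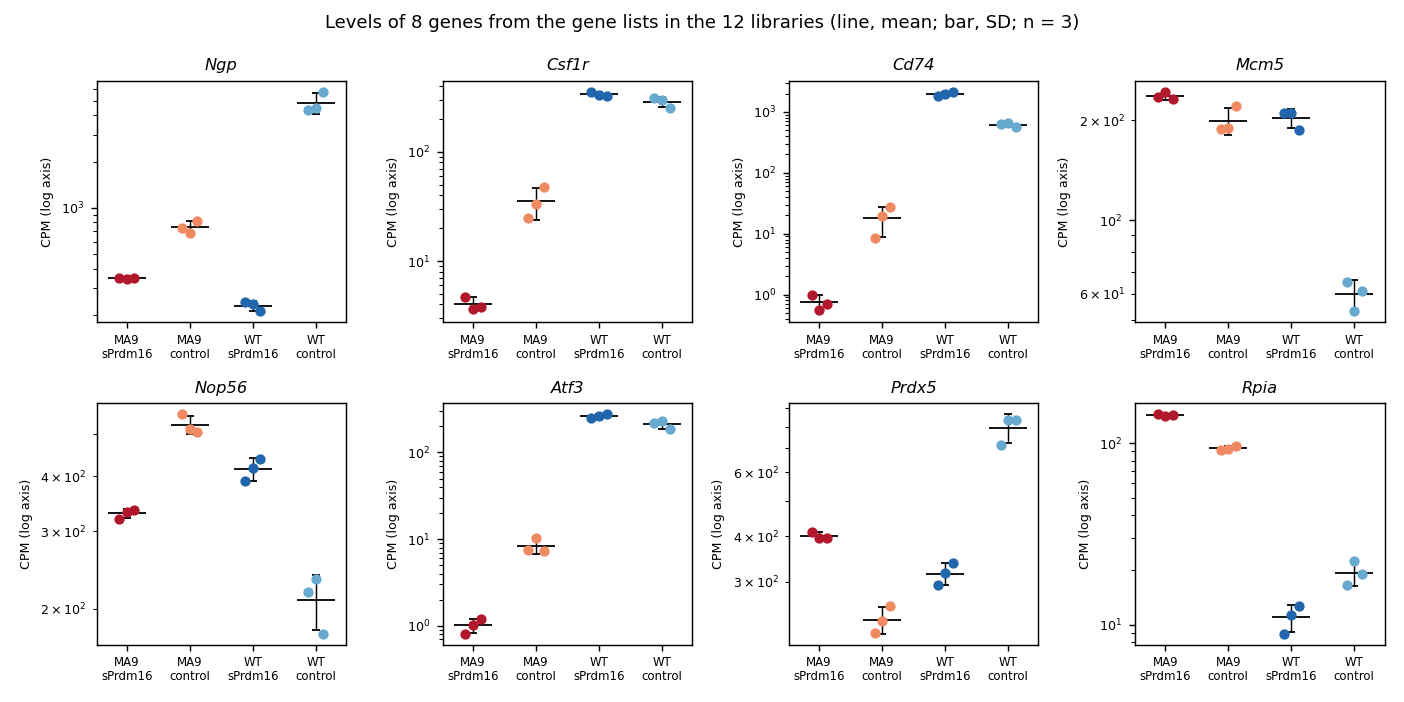
CPM on a log axis of Ngp, Csf1r, Cd74, Mcm5, Nop56, Atf3, Prdx5 and Rpia in the 12 libraries, with points for libraries, lines for means and bars for SD (n = 3 per group). Csf1r and Atf3 drop in MA9 sPrdm16 with little change in WT, Ngp and Mcm5 change most in WT, and Cd74, Nop56, Prdx5 and Rpia change in opposite directions.

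Regulators of cell death were split, with 4 of 15 members of the BCL2 family more positive in MA9 and 4 more negative. The shares over all compared genes were 19% and 15.9%. Bcl2, which blocks apoptosis, had 3.53, 3.59 and 3.70 CPM in MA9 sPrdm16 libraries, against 16.9, 13.4 and 10.5 in MA9 control libraries. In WT cells Bcl2 had 89.2, 96.2 and 103 CPM with sPrdm16, against 74.3, 85.03 and 64.5 in control. It fell in MA9, its WT value did not pass the test, and the log2 difference was -2.31 (SE 0.23, adjusted p = 7.5e-07). Bak1, which opens the mitochondrial outer membrane, changed by 0.59 in MA9 and -0.93 in WT (difference 1.52).

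Of known Prdm16 partners, 4 of 12 were more positive and 1 more negative, against 19% and 15.9% of all compared genes. Ctbp2, a corepressor, averaged 80.4 ± 2.74 CPM in MA9 sPrdm16 and 34.5 ± 9.35 in MA9 control, and 40.9 ± 3.84 in WT sPrdm16 and 38.96 ± 5.49 in WT control (SD, n = 3 each). The rise was called in MA9, and the log2 difference was 1.17 (SE 0.22, adjusted p = 7.6e-04). Zfp516, a zinc-finger partner known from brown fat, changed by 0.92 in MA9 and -0.51 in WT (difference 1.43). Cebpb, a partner in the same tissue and a factor of emergency granulopoiesis, rose by 0.50 in MA9 and had -0.15 in WT, which did not pass the test (difference 0.65).

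Aldo-keto reductases other than Akr1c18 moved less. Of 8 compared members, Akr1c18 included, 2 were more positive and 1 more negative, against 19% and 15.9% of all compared genes. Akr1c13, from the same cluster on chromosome 13, fell by 0.86 in WT and had 0.22 in MA9, which did not pass the test (difference 1.08). Akr7a5, an aldehyde reductase, was the negative member, at -1.06, and with total counts and no scaling factor it had the other sign, at 0.14. In the ATF4 list 5 of 25 were more positive and 7 more negative, against the same 19% and 15.9%. Its members include Slc7a11 and Shmt2, the serine-to-glycine enzyme of mitochondria, which rose by 1.42 in WT and had -0.23 in MA9, which did not pass the test (difference -1.65). Shmt2 lost its call on unscaled total counts (-0.46, adjusted p = 0.21).

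The remaining lists gave the following counts, against 19% more positive and 15.9% more negative over all compared genes. Lysosomal genes had 11 of 28 more positive and 4 more negative, integrins and adhesion genes 8 of 19 and 3, and C-type lectin receptors 5 of 12 and 3. With protein-coding totals and no scaling factor these were 7 and 7, 6 and 5, and 4 and 3. Interferon response genes had 3 of 15 in each direction, p53 targets 4 of 24 in each direction and MHC class I genes 2 of 15 in each direction. NF-kB and inflammatory genes had 3 of 18 more positive and 5 more negative, and proteasome subunits 7 of 38 and 5. Cytosolic ribosomal proteins had 11 of 80 more positive and 15 more negative (3 and 29 with protein-coding totals and no scaling factor). Among the 60 that overlap no small RNA gene, 9 were more positive and 8 more negative, while among the 20 that do, these were 2 and 7. Rps3, a host of snoRNAs, changed by -1.79 in MA9 and 0.12 in WT, where the WT value did not pass the test (difference -1.91).
Besides Sytl3, P2rx3 and Fam160a1, several genes named above overlap another gene of at least 100 counts in the annotation, and the sources used here do not say whether reads were counted by strand. Overlaps with protein-coding genes were Csf1r with Hmgxb3, Irf8 with Galnt2l, Nop56 with Idh3b, Prdx5 with Trmt112, Acss2 with Gss, Rpe with Kansl1l, Cebpb with Tmem189, Ndufa2 with Tmco6, and Bak1 with Ggnbp1 and a second gene. Mpo, Vcan, Jun and Myb overlap antisense genes, Satb1, Rrm1, Slc7a11 and Ctbp2 unclassified transcripts, and Acadl a pseudogene.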

How the data were processed

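Gene-level expected counts, estimated counts that need not be whole, were deposited by the authors in 2 tables, 1 per background. Per the submitters' processing notes the tool was DRAGEN and the build mm10, and neither counting mode nor strand setting is given. The labels name an RNeasy kit for total RNA and Nextera XT for the libraries. The share of values that were not whole ran between 5.19% and 10.2% per library, and counts were rounded here. Tables were joined on gene ID.

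Library size was the nuclear protein-coding total, with TMM factors from the compared genes. The 16507 genes passing filterByExpr (minimum count 10) were fitted over 12 libraries as 4 groups with edgeR 4.0.16 in R 4.3.3 (robust quasi-likelihood F test). P-values were adjusted by Benjamini-Hochberg over all 16507, with a threshold of 0.05. SE is the log2 value divided by the square root of F, and all tests are 2-sided. "Rose" and "fell" apply to genes that passed it. On simulated data with 200 changed genes, 165 were called and 6 of these calls were false. The simulation had far fewer changed genes and no shift in RNA composition, so it does not give the error rate of these data. Alternatives were other scalings, DESeq2 1.42.0, limma-voom (limma 3.58.1), a test against a fold of 1.5, no filter, a minimum of 20 counts, a fit on the compared genes alone, thinning, the replicate number as a block and leaving out each library. Counting over genes that overlap no small RNA gene was added after seeing the data.

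The compared genes and lists were chosen with earlier results of these data known. Genes named are Prdm16 and the 4 markers, the 8 largest differences in each direction, the 5 largest opposite changes of each orientation (both with a mean of at least 1 CPM in each group, 5 CPM in the highest, and no predicted or clone name), members of lists among the 3 smallest p, and the largest limit in each direction among genes at 0 in a whole group. Which list members are described was decided after their values were seen. Lists are described by counts and medians with no set test. Libraries of a group differed beyond sampling noise (chi-square per gene 3.19 to 22.5), and least within MA9 sPrdm16 (3.19 to 3.62). The spread of each gene was estimated over all groups together. The labels do not say whether replicates are separate cultures or animals. P-values thus reflect the spread between the samples at hand, which may be technical. Limits from counts of 0 (3 counts per library) cover counting error of the group at 0 only. They take the means of the other groups as measured. Promoter sequences are from RefSeq.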

Additional observations from a re-analysis of the deposited data

Results flagged for a closer look

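Every gene below changed with sPrdm16 by a different amount in MA9 and in WT, by the edgeR test of the difference itself. Values are log2 differences (MA9 minus WT), and for part of them the SE and adjusted p stand in the report. Genes were named partly for the size or p of this difference, so the number of such genes carries no weight of its own.

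The groups here follow known roles, and several of the genes are in none of the lists described. Among granulocyte genes the difference was 4.62 for S100a9, 2.63 for S100a8, 3.29 for Ngp, 3.25 for Chil3, 4.49 for Slpi, 4.06 for Stfa2 and 4.54 for Ceacam10. For other granule genes it was -4.33 for Mmp8, -2.68 for Mpo and 0.62 for Ctsg, and for S100a4 of the S100 family it was -2.83. Basophil, mast cell and eosinophil genes had 4.23 for Mcpt8, 3.23 for Ms4a2, 0.81 for Hdc, 1.96 for Prg2 and -2.39 for Ear2. Genes of monocytes, macrophages and dendritic cells had -3.38 for Mgl2, -3.02 for Clec10a, -3.32 for Csf1r, -3.48 for Vcan, -4.20 for Klf4, -2.28 for Irf8, -4.0 for Cd86 and -6.19 for Cd74. Signalling and surface genes had 1.19 for Csf2rb2, 2.50 for Ccl9, -4.88 for Plxnb2, -4.27 for P2rx3, -3.25 for Ubash3a, -3.19 for Rps6ka2, 4.85 for Rnf144a, 4.08 for Sytl3 and 4.05 for Olfml2b.

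Progenitor and chromatin genes had -4.03 for Sox4, 1.71 for Pbx3, -0.83 for Myb, 3.73 for Satb1, -4.13 for Zbtb10, 1.43 for Zfp516, 1.17 for Ctbp2 and 0.65 for Cebpb. Growth and division genes had -1.44 for Myc, -1.66 for Nop56, -1.91 for Rps3, -1.51 for Mcm5, -2.08 for Pole, -1.40 for Bub1b, -0.91 for Cdk1 and -1.09 for Rrm1. Stress and survival genes had -3.39 for Atf3, -1.22 for Jun, -2.31 for Bcl2, 1.52 for Bak1, -1.65 for Shmt2 and 1.59 for Slc7a11. Redox and reductase genes had 5.48 for Akr1c18, 1.08 for Akr1c13, -1.06 for Akr7a5, 2.10 for Prdx5, 2.001 for Mgst1, 1.96 for Gstm1, 1.13 for Rac2, 1.38 for Rpe and 1.42 for Rpia. Other metabolic genes had -5.01 for Lpl, 2.03 for Ero1l, 1.09 for Bnip3l, 1.23 for Slc2a3, 0.63 for Eno1, 1.84 for Acss2, -0.77 for Fasn, 1.11 for Acadl, 1.13 for Hmgcs1, 1.30 for Cox7a2, 1.13 for Ndufa2, 1.23 for Samhd1 and 1.20 for Nt5c3. The remaining genes had -5.99 for Mettl26, -5.17 for Bex6 and 3.92 for Fam160a1.

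Where a group was at 0, the value is a limit, at least 3.41 for Prdm16, at least 5.14 for Lama5 and at most -3.96 for Srl. These limits take the means of the other groups as measured.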

How the results depend on the processing

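The 2066 more positive and 1731 more negative genes stayed within 1.5 times their number under TMM over all genes, TMM within each background, RLE, DESeq2, limma-voom, no filter, the 20-count minimum, the fit on compared genes alone, thinning and the count over genes that overlap no small RNA gene (2053 and 1689, added after seeing the data). With total counts and no scaling factor, 7028 genes were more positive and 164 more negative, 356 changed in opposite directions and 388 in the same direction by a different amount. With protein-coding totals and no scaling factor, 1300 were more positive. Against a fold of 1.5, 680 were more positive, 664 more negative, 56 opposite and 28 in the same direction. Without each library in turn, 1660 to 2121 were more positive, 1367 to 1788 more negative, 434 to 706 opposite and 159 to 257 in the same direction. The lowest counts of opposite changes, 434 and 435, came without MA9 sPrdm16 replicate 2 and replicate 1, and the lowest in the same direction, 159 to 162, without an MA9 sPrdm16 library. With a library of another group left out instead, 526 to 706 were opposite. Each of these fits leaves fewer samples, and the cause was not tested, also for the scalings. Chi-square per gene between libraries was lowest within MA9 sPrdm16, at 3.19 to 3.62. It was 8.80 to 15.3 within MA9 control, 9.36 to 17.2 within WT sPrdm16 and 15.3 to 22.5 within WT control.

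Same-numbered sPrdm16 and control libraries did not deviate together (r -0.053 to 0.027 over genes). Libraries with different numbers had r of -0.069 to 0.060. This check rests on few libraries per group, so it cannot decide whether the numbers pair the samples. With the replicate block, 1902 genes were more positive and 1563 more negative, 564 opposite and 217 in the same direction. The value of Prdm16 lost its call under the block (adjusted p = 0.067).

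For the 83 genes named, 1970 of their values under alternatives kept direction and call, 17 lost the call and 5 reversed. All 5 reversed with total counts and no scaling factor: Myb (0.34), Akr7a5 (0.14), Fasn (0.43), Rrm1 (0.10) and Cdk1 (0.26). The other scale-related losses of a call were also on unscaled total counts, for Ear2, Nop56, Myc, Mcm5, Bub1b, Jun and Shmt2, and at equal depth for Ear2. Against a fold of 1.5, Ctsg, Hdc, Myb, Akr7a5, Eno1, Fasn, Cdk1 and Cebpb lost theirs, with adjusted p between 0.099 and 0.53. On unscaled total counts the list medians of ribosome biogenesis (0.13), S phase (0.29), mitosis (0.60), immediate early (0.68) and cytarabine genes (0.82) turned positive, as did 8 others. With protein-coding totals and no scaling factor 9 list medians turned negative. These were glycolysis, the TCA cycle, fatty acid synthesis and oxidation, stem and progenitor factors, C-type lectins, Prdm16 partners, and cytosolic and mitochondrial ribosomal proteins. Under TMM over all genes and under RLE 1 list median turned positive. TMM within each background and equal depth each turned 2 negative, and leaving out MA9 control replicate 3 turned 2 positive. Depth limits the MA9 control group most, where 3844571 protein-coding counts remained in replicate 3.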

Other observations

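Akr1c18, S100a9, Slpi and Mcpt8 had their highest values in WT control libraries, and MA9 control libraries lay below all 3 WT control libraries for each of them. For such genes the WT change started from a higher level than the MA9 change. Levels were not tested between backgrounds.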
